A study of Mus musculus with 8 samples.

Results

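The genes described here are 10 genes of antigen presentation by the major histocompatibility complex (MHC), out of the 36811 gene models of the table. Of these members, 6 belong to the class I pathway (H2-K1, H2-D1, B2m, Tap1, Tapbp and Nlrc5) and 4 to class II (H2-Aa, H2-Ab1, H2-Eb1 and Cd74). They were taken by symbol, as genes of the pathway and not by a cut on their values, and all 10 passed the low-value filter. RNA was sequenced from regulatory T (Treg) cells of the spleen of C57BL/6 mice aged 12 to 13 weeks. Every mouse carried a Foxp3EGFP-DTR allele, whose green fluorescence marks Treg cells, and a Bach2tdRFP/+ genotype, in which a red fluorescent protein reports on 1 of the 2 copies of Bach2, a transcriptional repressor. CD4 T cells were enriched and green cells were sorted into Bach2-RFP HI and Bach2-RFP LO populations, with 4 libraries each, labelled F1, F2 (female), M1 and M2 (male). The labels do not say whether the libraries came from separate mice, or whether equal labels in HI and LO mark the same mouse. The p-values therefore reflect only how these libraries vary, which may be technical.

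Values are FPKM, which scale reads to transcript length and library depth, so levels can be set side by side between genes. Depth was read from the spacing of the lowest values and lay at 0.636 to 1.27 times that of HI F1 in 7 libraries and of 5.27 times in LO M2. Foxp3, which defines Treg cells, was at 10.5 to 19.8 FPKM in all 8 libraries. Of 8 tested markers of Treg and CD4 T cells, Ctla4 and Ikzf2 were higher and Il2ra lower in LO. Of 11260 genes tested with limma, 934 differed between LO and HI at an adjusted p below 0.05, which is 8.29%.

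Class I molecules display peptides from inside the cell to CD8 T cells. A heavy chain, encoded in C57BL/6 mice by H2-K1 or H2-D1, pairs with beta-2 microglobulin (B2m), and takes a peptide that the transporter Tap1/Tap2 has carried into the endoplasmic reticulum and that tapasin (Tapbp) helps to load. Class II molecules present peptides from endocytosed protein to CD4 T cells. Their alpha and beta chains, such as H2-Aa with H2-Ab1, assemble on the invariant chain Cd74, and they are found mainly on B cells, dendritic cells and macrophages. H2-Eb1 encodes another beta chain, and the alpha chain gene H2-Ea was not matched in the table. Nlrc5 is the coactivator of class I genes and Ciita that of class II genes. Both work through a shared promoter module that holds a cyclic AMP response-like X2 box and, further downstream, a CCAAT-type Y box.

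Letters of that module were searched for in the promoters of the members. The RefSeq promoter table (GRCm38.p6) held 7 of 9 members looked up, all but H2-Ab1 and Nlrc5, and Cd74 was not looked up. The 125 bases before the start of transcription are shown for 5 members, because they place class I and class II genes beside each other. They lie at chr17:34000348-34000472 (minus strand) for H2-K1, chr17:35262969-35263093 (plus) for H2-D1, chr2:122147562-122147686 (plus) for B2m, chr17:34287824-34287948 (minus) for H2-Aa and chr17:34305742-34305866 (plus) for H2-Eb1. Each is written 5′ to 3′ on the gene's strand, with TGACG (the core of the X2 box) and ATTGG (the Y box), on either strand, in capitals.
H2-K1: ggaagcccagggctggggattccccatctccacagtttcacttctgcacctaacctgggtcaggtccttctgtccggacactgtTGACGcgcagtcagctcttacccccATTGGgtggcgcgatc
H2-D1: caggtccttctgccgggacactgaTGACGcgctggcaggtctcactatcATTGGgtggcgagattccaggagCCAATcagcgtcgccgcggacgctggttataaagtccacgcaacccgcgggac
B2m: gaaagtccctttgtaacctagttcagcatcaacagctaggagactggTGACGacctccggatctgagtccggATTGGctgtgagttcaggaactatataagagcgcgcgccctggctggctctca
H2-Aa: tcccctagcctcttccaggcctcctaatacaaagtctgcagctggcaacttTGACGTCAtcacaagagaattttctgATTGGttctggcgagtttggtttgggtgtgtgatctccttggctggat
H2-Eb1: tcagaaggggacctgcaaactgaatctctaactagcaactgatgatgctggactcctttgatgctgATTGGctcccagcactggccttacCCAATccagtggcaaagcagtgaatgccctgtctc

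In H2-K1, H2-D1 and B2m the 2 motifs stand 20 bases apart, and in H2-Aa 21 bases apart. TGACG followed after 19 to 22 bases by ATTGG, searched on both strands of the 250 bases before the start, was found in 71 of 32851 promoters (0.216%), while TGACG alone was in 17.8% and ATTGG alone in 33.8%. The windows of Tap1, Tapbp and H2-Eb1 do not hold the spaced pair in these letters. These are letter matches and say nothing about binding in these cells.

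Class I heavy chain and B2m transcripts were among the most abundant in the sorted cells, and their HI and LO values overlapped. Among 20149 protein-coding gene models, B2m ranked 4th, H2-K1 6th and H2-D1 9th by mean FPKM. B2m stood at 7862, 8905, 8627 and 9789 FPKM in HI (F1, F2, M1, M2) and at 8797, 8726, 8418 and 6877 in LO. The groups overlapped, with HI M2 highest and LO M2 lowest. H2-K1 was at 5529, 5729, 5632 and 7223 FPKM in HI and at 5935, 6557, 5396 and 9131 in LO. H2-D1 was at 4545, 5256, 4742 and 6017 FPKM in HI and at 5420, 6038, 5117 and 6749 in LO. For both heavy chains the M2 library was the highest of its group, and the groups overlapped.

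The log2 difference, LO minus HI, on the scale of log2(FPKM + 1), was -0.10 for B2m (95% interval -0.41 to 0.20, limma adjusted p = 0.733). It was 0.14 for H2-K1 (-0.26 to 0.55, limma adjusted p = 0.72) and 0.18 for H2-D1 (-0.14 to 0.50, limma adjusted p = 0.535). As folds, the intervals run from 0.754 to 1.15 for B2m, from 0.834 to 1.46 for H2-K1 and from 0.908 to 1.42 for H2-D1, so a change of 1.5-fold or more lies outside them. These intervals hold for FPKM as deposited. The direction of B2m turned when libraries were scaled to equal sums over protein-coding genes (0.11) and under quantile normalization. Under the latter the differences were larger, at 0.49 for B2m (limma adjusted p = 0.0263), 0.65 for H2-D1 (limma adjusted p = 0.0346) and 0.73 for H2-K1 (limma adjusted p = 0.106). Without LO M2, the H2-K1 difference was -0.01.

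The H2-K1 and H2-D1 sequences resemble each other, so reads may be shared. Of the 50-base stretches of annotated H2-K1 coding transcripts, 6.87% also occur in transcripts of another gene, mostly H2-D1, and of those of H2-D1 13.9% do, with H2-Q1 as the most frequent partner (6.68%). Among the other members, the share was 6.27% for Tap1 and 22.4% for Tapbp, whose models overlap neighbouring annotated transcripts, and 0% for B2m, Nlrc5, H2-Aa, H2-Ab1, H2-Eb1 and Cd74. The ratio of H2-K1 to H2-D1 FPKM lay between 1.06 and 1.35 in all libraries.

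**Figure D1:**
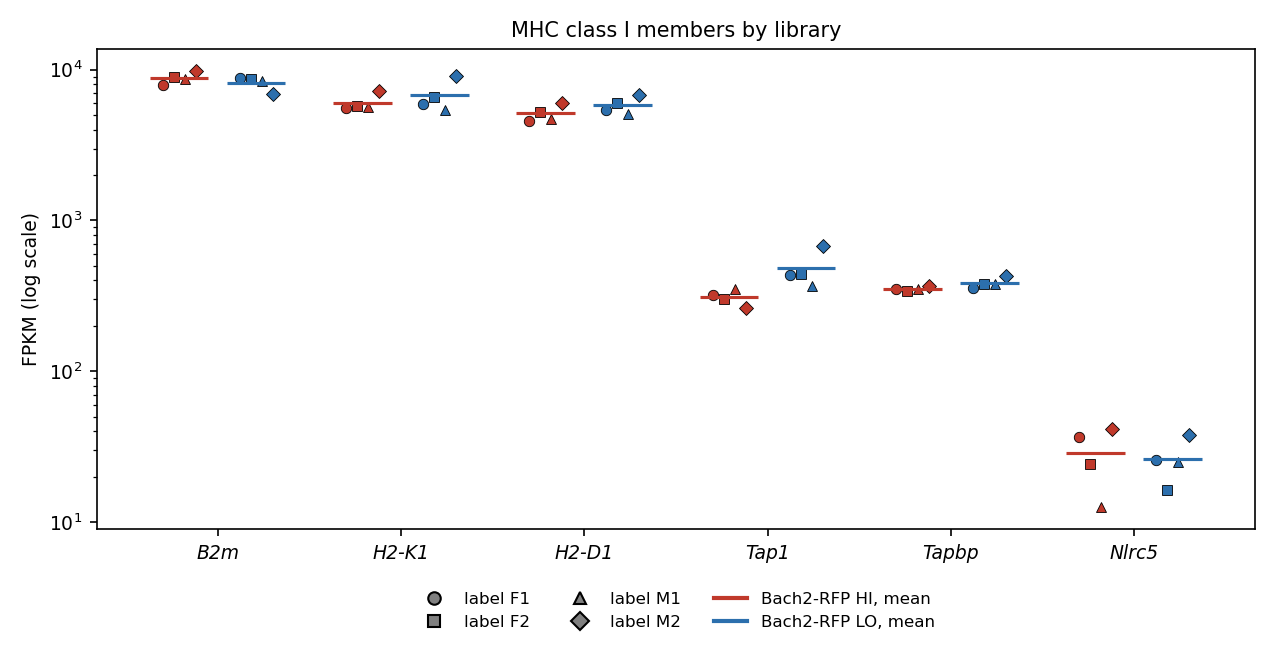
FPKM of the 6 class I members on a log axis, 1 point per library (shape by label, colour by group), with the mean of each group of 4 as a bar. B2m, H2-K1 and H2-D1 overlap between HI and LO at 4545 FPKM and above, and for Tap1 the 4 LO libraries (369.5 to 675) lie above the 4 HI libraries (264 to 352).

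In FPKM as deposited, Tap1 had the largest difference of the 10 members; under quantile normalization that of H2-K1 was larger (0.73 against 0.67). Its FPKM was 321, 300.1, 352 and 264 in HI and 435, 442, 369.5 and 675 in LO, so the groups did not overlap. Over all tested genes, 15.1% did not overlap in either direction 7.9% with LO above HI and 7.18% with LO below. The ratio of means was 1.55, and the log2 difference was 0.60 (SE 0.191, interval 0.18 to 1.03). It did not pass (limma adjusted p = 0.0931; unadjusted p = 0.0105; two-sided exact permutation test p = 0.0286, the minimum for 4 libraries against 4). LO M2, the deepest library, held the highest Tap1 value, and without it the difference was 0.43 (limma adjusted p = 0.128). The scaling on protein-coding genes moved the median of all tested genes to 0.17. Under it Tap1 passed with 0.81, or 0.64 above that median (limma adjusted p = 0.0179). The same scaling gave 830 genes higher and 304 lower in LO, against 524 and 410 with FPKM as deposited.

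Tapbp was at 353, 343, 350.1 and 365 FPKM in HI and at 354, 379.8, 379.6 and 431 in LO, with a log2 difference of 0.13 (limma adjusted p = 0.60). Its spread between libraries was small: the SD within groups on the log2 scale was 0.087, lower than in all but 1.16% of the 1382 protein-coding genes with a mean of at least 100 FPKM. Nlrc5, the class I coactivator, stood far lower, at 36.8, 24.3, 12.6 and 41.5 FPKM in HI and 25.8, 16.3, 25.0 and 37.8 in LO. Its libraries differed up to 3.31-fold with no order between the groups (log2 difference -0.06, interval -0.92 to 0.80, limma adjusted p = 0.954), or 0.528 to 1.74 as a fold. Its direction turned with the scaling on protein-coding genes (0.14).

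None of the 6 class I members passed with limma, 1 (Tap1) had an unadjusted p below 0.05, and the median log2 difference over the 6 was 0.13, against -0.03 over all tested genes.

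Over the lists of the class I pathway few genes passed. The 9 assembly and loading genes include the members B2m, Tap1 and Tapbp. Of the 9, 0 passed with limma, 8 had a positive difference, 2 (Tap1 and Tap2) had an unadjusted p below 0.05, and the median was 0.23. Over all tested genes, 20.9% had an unadjusted p below 0.05 and 48.0% a positive difference. Tap2, the partner of Tap1, was at 405, 223, 223 and 244 FPKM in HI and 462, 284, 361 and 463 in LO (log2 difference 0.54, limma adjusted p = 0.225). The high HI F1 value overlaps with the LO group. The chaperone Calr was at 497 ± 72.5 in HI and 594 ± 167 in LO, and the disulfide isomerase Pdia3 at 841 ± 48.5 and 860 ± 190 FPKM (SD, n = 4 each; limma adjusted p = 0.604 and 0.986).

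Of the immunoproteasome, which cuts peptides that suit class I, 4 genes were measured and 0 passed with limma, none with an unadjusted p below 0.05. Psmb8 was at 1273 ± 166 FPKM in HI and 1180 ± 90.3 in LO, and the activator subunits Psme1 and Psme2 at 993 ± 97.8 and 3831 ± 598 in HI against 884 ± 82.0 and 3929 ± 1061 in LO (SD, n = 4). Catalytic subunits of the immunoproteasome, such as Psmb8, replace Psmb5, Psmb6 and Psmb7 of the constitutive proteasome. These constitutive subunits also gave 0 of 3 with limma, with an unadjusted p below 0.05 for Psmb6 alone. Psmb6 lay at 416 to 520 FPKM in HI and 340.4 to 391.8 in LO (limma adjusted p = 0.224).

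Nonclassical class I heavy chains presented 13 tested genes, of which 1 passed. H2-T23, which encodes the Qa-1 molecule read by NKG2 receptors, was at 499.6 ± 48.4 FPKM in HI and 542 ± 14.0 in LO (SD, n = 4; limma adjusted p = 0.62). H2-Q7 was at 293 ± 29.4 and 304 ± 37.5, and H2-Q6 at 199 ± 39.6 and 187 ± 39.6 FPKM (limma adjusted p = 0.891 and 0.869). Those genes share 29.8% to 35% of their 50-base stretches with other genes, so their levels are uncertain. The gene that passed was H2-M2, at 1.42 FPKM in HI F1 and listed at 0 in the other HI libraries. In LO it was at 5.20, 1.73, 4.28 and 2.12 (log2 difference 1.71, limma adjusted p = 0.044). H2-M2 met the filter of 1 FPKM in 4 or more libraries through its LO values, so its call is no support for a difference. Its call was lost in 13 of 20 alternatives, among them leaving out any 1 library other than HI F1, at adjusted p = 0.0579 to 0.118.

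Class II transcripts were abundant in both sorted populations and varied widely between libraries of a group. H2-Aa was at 421, 198, 429.9 and 326 FPKM in HI (F1, F2, M1, M2) and at 442, 133, 234 and 281 in LO. H2-Ab1 was at 489, 226, 500.1 and 387.5 in HI and at 599, 150.2, 302 and 362 in LO. H2-Eb1 was at 344, 154, 322 and 204 in HI and at 372, 106, 248 and 225 in LO. For each chain both F2 libraries were the lowest of their group, LO F1 was the highest of all 8 libraries, and the groups overlapped.

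The invariant chain Cd74 was at 803, 736, 988 and 953 FPKM in HI and at 1207, 624, 727 and 981 in LO, again with LO F1 highest and LO F2 lowest. It ranked 138th among protein-coding gene models, against 338th for H2-Ab1, 430th for H2-Aa and 529th for H2-Eb1. The order Cd74, H2-Ab1, H2-Aa, H2-Eb1 held in every library but LO M1, where H2-Eb1 (248) stood above H2-Aa (234).

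The log2 differences, LO minus HI, were -0.40 for H2-Aa (interval -1.21 to 0.41, limma adjusted p = 0.60), -0.28 for H2-Ab1 (-1.17 to 0.61, limma adjusted p = 0.757), -0.16 for H2-Eb1 (-1.02 to 0.69, limma adjusted p = 0.861) and -0.01 for Cd74 (-0.48 to 0.46, limma adjusted p = 0.984). None of the 4 passed with limma, and none had an unadjusted p below 0.05. The median over the 4 was -0.22. The intervals of the 3 chains reach past a 2-fold fall and so do not exclude one, while for Cd74 the interval as a fold was 0.716 to 1.37. Scaling on protein-coding genes turned the small differences of H2-Eb1 (0.05) and Cd74 (0.20). That of Cd74 also turned under quantile normalization (0.18) and upper quartile scaling (0.02). Single libraries moved the chains too: without LO F2 the differences were -0.10 for H2-Aa, 0.08 for H2-Ab1 and 0.18 for H2-Eb1, and without LO F1 they were -0.67, -0.59 and -0.42. Over all 21 alternatives H2-Aa was negative in each, H2-Ab1 was positive in 1, H2-Eb1 in 3 and Cd74 in 8.

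**Figure D2:**
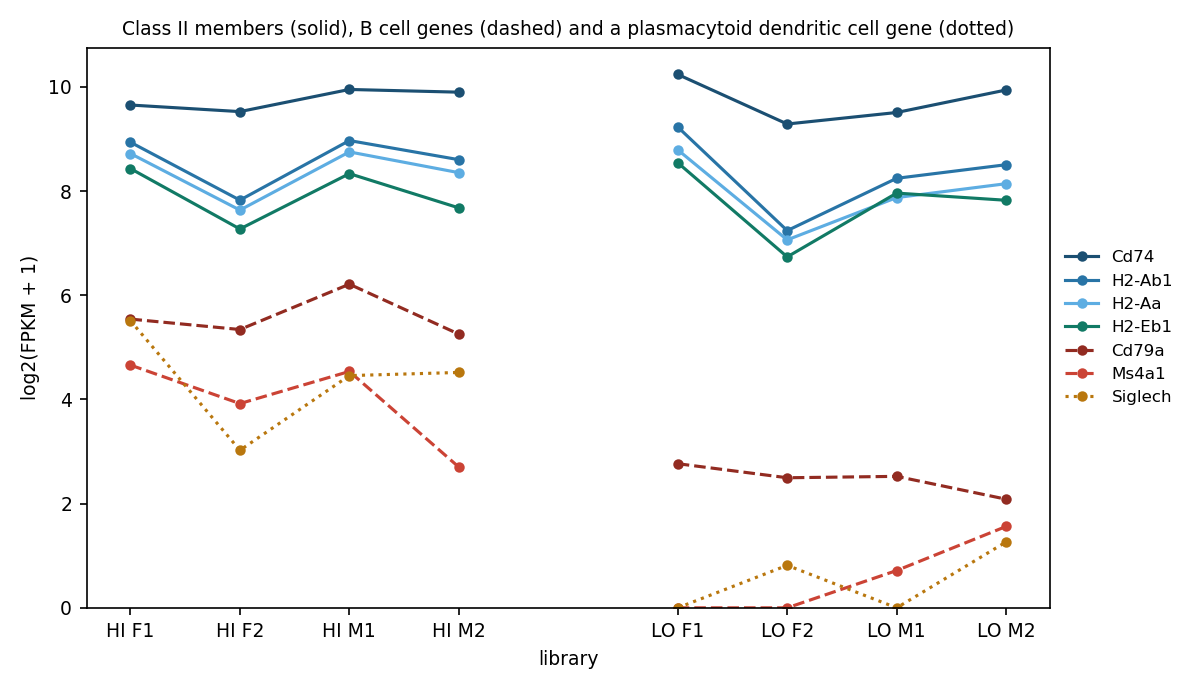
log2(FPKM + 1) of the 4 class II members (solid), of the B cell genes Cd79a and Ms4a1 (dashed) and of Siglech (dotted) in each library; lines join the libraries of a group only to guide the eye. The class II members overlap between HI and LO and dip in both F2 libraries, while Cd79a falls from 37.2 to 73.1 FPKM in HI to 3.24 to 5.81 in LO. Ighm and Igkc, genes of the B cell list that were higher in LO, are not drawn.

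The spread of the 3 class II chains was wide among genes of at least 100 FPKM. The SD within groups on the log2 scale was 0.625 for H2-Aa, 0.693 for H2-Ab1 and 0.660 for H2-Eb1, larger than in 95.4%, 97.0% and 96.5% of the 1382 protein-coding genes with a mean of at least 100 FPKM, whose median was 0.266. B2m (0.150) and H2-D1 (0.178) were on the other side of that median, H2-K1 (0.266) was at it, and Cd74 (0.334) and Tap1 (0.289) were somewhat above it. Over the 8 libraries, the highest value was 3.33 times the lowest for H2-Aa, 3.99 times for H2-Ab1 and 3.52 times for H2-Eb1, against 1.42 times for B2m.

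**Figure D3:**
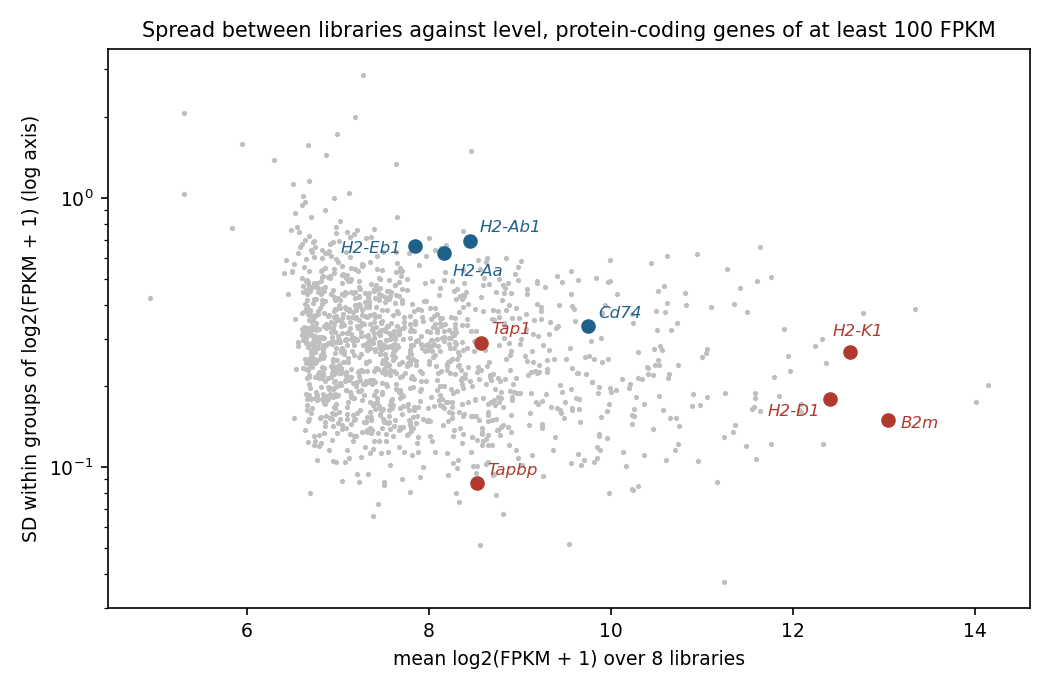
SD within groups of log2(FPKM + 1) (log axis) against mean level over the 8 libraries for 1382 protein-coding genes of at least 100 FPKM (grey). The 3 class II chains (blue) lie at 0.625 to 0.693, while the 5 class I members at this level (red) lie at 0.087 to 0.289.

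The 3 chains moved together from library to library. Pearson's r over the 8 libraries was 0.99 between H2-Aa and H2-Ab1, 0.942 between H2-Aa and H2-Eb1, and 0.818 between H2-Aa and Cd74, given here as a description of 8 libraries that share depth and sort. H2-Aa and H2-Ab1 placed the 8 libraries in the same order. The ratio of H2-Aa to H2-Ab1 stayed between 0.737 and 0.884. The heavy chains H2-K1 and H2-D1 also went together (r = 0.90), while r between H2-K1 and H2-Aa was -0.14.

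Libraries with number 1 in the label (F1 and M1) and number 2 (F2 and M2) differed for the class II chains by more, in value, than LO and HI did. What the numbers mark is not given. The mean FPKM of H2-Eb1 was 321.5 in the 4 libraries numbered 1 (248 to 372) and 172 in the 4 numbered 2 (106 to 225), with no overlap. For H2-Aa the means were 381.5 and 234, and for H2-Ab1 473 and 281.5, with overlap in LO M1. The heavy chains went the other way, from 5623 to 7160 for H2-K1 and from 4956 to 6015 for H2-D1, also with overlap. In a fit with the number as a second term, added after the values were seen, the log2 difference of number 2 against number 1 was -0.94 for H2-Eb1 (limma adjusted p = 0.321), -0.74 for H2-Aa, -0.80 for H2-Ab1, 0.33 for H2-K1 and 0.28 for H2-D1, and none of these passed. That term passed for 1 of 11260 genes, with 1145 at an unadjusted p below 0.05. Within number 1 the LO minus HI difference of H2-Aa was -0.40 and within number 2 it was -0.39. For H2-K1 these values were 0.02 and 0.27, and for Tap1 0.25 and 0.95.

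Markers of other spleen cells were set beside the class II levels, since class II transcripts can come from a few cells of another type in a sort. In bulk RNA, fewer cells of a type and less RNA per cell cannot be told apart. Of 11 tested B cell markers, 4 were lower in LO (among them Ms4a1, Cd79a and Fcer2a) and 2, the immunoglobulin genes Ighm and Igkc, were higher. Over all genes, 3.64% were called lower and 4.65% higher. The summed FPKM of the B cell list was 1810 to 2236 in HI and 3322 to 6833 in LO, without overlap. Most of it was Igkc (800.1 to 1091 in HI, 2188 to 5608 in LO) and Ighm (767 to 864 in HI, 1042 to 1956 in LO). Without those immunoglobulins, the sum was 165 to 282 in HI and 91.7 to 105 in LO. Pax5, which did not pass the low-value filter, was listed at 0 in all 4 LO libraries and in HI M1. It was at 0.93 to 3.55 FPKM in HI F1, HI F2 and HI M2. Ms4a1 was listed at 0 in LO F1 and LO F2.

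Cd79a, the B cell receptor signalling chain, was at 45.6, 39.6, 73.1 and 37.2 FPKM in HI and at 5.81, 4.64, 4.75 and 3.24 in LO, without overlap. H2-Aa FPKM was thus 4.997 to 9.22 times that of Cd79a in HI and 28.6 to 86.8 times in LO. In the LO libraries the class II chains were at 106 to 599 FPKM and the B cell gene Ms4a1 at 0 to 1.95 FPKM. Ighm was at 1042 to 1956 and Igkc at 2188 to 5608 FPKM in the same libraries. Other B cell genes did not pass and overlapped between the groups. Cd79b, the partner of Cd79a, was at 77.8 to 119 FPKM in HI and 59.9 to 92.4 in LO, Cd22 at 4.43 to 8.46 and 1.89 to 12.0, and Bank1 at 7.66 to 14.4 and 0 to 12.9. These genes and Cd79a were picked after their values were seen.

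Plasmacytoid dendritic cell markers were lower in LO for 6 of 9 genes, and their sum was 497 to 852 FPKM in HI and 290 to 386 in LO. Most of that sum was Irf8 (112 to 274.5 in HI, 59.6 to 175 in LO) and Bst2 (186.5 to 237 in HI, 125 to 233 in LO). Irf8 and Bst2 overlapped between the groups and did not pass. Siglech was listed at 0 in LO F1 and LO M1, at 0.760 in LO F2 and at 1.40 in LO M2. Among monocyte and macrophage markers, 5 of 9 were lower in LO, with sums of 185 to 305 and 60.5 to 207. Conventional dendritic cell markers gave 0 of 6 tested with limma, with an unadjusted p below 0.05 for 1. Their sum was 24.9 to 44.7 FPKM in HI and 22.1 to 36.7 in LO. Xcr1, which was not tested, was listed at 0 in all HI libraries, LO F1 and LO F2. It was at 0.281 FPKM in LO M1 and 0.426 in LO M2. The plasma cell list had 1 of 4 genes higher in LO, Jchain, and sums of 38.6 to 60.0 in HI and 62.8 to 198 in LO. Neutrophil markers (31.2 to 114 in HI, 30.1 to 185 in LO) and the list of CD8 T and NK cells (40.8 to 47.7 in HI, 25.6 to 34.2 in LO) had no call with limma, and 1 gene, Cd8b1 of the second list, had an unadjusted p below 0.05. The part of these cells in the class II levels was not tested.

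Erythroid transcripts were also highest in LO F1 and lowest in LO F2. Their summed FPKM, mostly globin, was 242, 40.5, 202 and 71.8 in HI (F1, F2, M1, M2) and 439, 14.1, 121 and 93.2 in LO. That sum placed the 8 libraries in the same order as H2-Eb1 did, a match picked out after the values were seen, while H2-Aa, H2-Ab1 and Cd74 had other orders in between. It does not differ between HI and LO beyond its spread, with 0 of 5 erythroid genes called with limma and none at an unadjusted p below 0.05. Its part in the class II spread was not tested.

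Several genes that handle class II peptides differed between the groups. Of 8 tested genes of peptide exchange and processing, 3 fell and 1 rose in LO, with a median of -0.28. The shares over all tested genes were 3.64% called lower and 4.65% called higher. Without overlap, 7.18% of all tested genes lay lower and 7.9% higher in LO. H2-Ob, the beta chain of H2-O, an inhibitor of peptide exchange found mainly in B cells, was at 66.4, 59.9, 54.2 and 66.9 FPKM in HI and at 22.5, 22.5, 31.4 and 31.4 in LO. The fall was 2.30-fold with no overlap (log2 difference -1.18, SE 0.19, limma adjusted p = 0.00419). H2-Oa, its alpha partner, was at 41.1 ± 21.3 and 43.1 ± 20.8 FPKM (SD, n = 4 in HI and in LO; limma adjusted p = 0.949).

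H2-DMb2 encodes a beta chain of H2-DM, which removes the invariant chain peptide from class II. It was at 27.2, 22.2, 47.5 and 18.5 FPKM in HI and at 9.85, 8.62, 9.07 and 12.4 in LO, a 2.89-fold fall (log2 difference -1.36, limma adjusted p = 0.0221). It shares 25.9% of its 50-base stretches with other genes, mostly H2-DMb1. It passed in 14 of 21 alternatives. With 1 library left out, the call was lost without HI F1, LO F1, LO F2 or LO M1 (adjusted p = 0.0522 to 0.0652), and the highest adjusted p was 0.11, without both F2 libraries. H2-DMa, the alpha chain, was at 121 to 166 FPKM in HI and 83.4 to 116.6 in LO, also without overlap, but did not pass (log2 difference -0.47, limma adjusted p = 0.118).

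Ctss, the cathepsin that cleaves the invariant chain in B cells and dendritic cells, fell from 518, 455, 487 and 505.5 FPKM in HI to 278, 302, 278 and 350.2 in LO, 1.63-fold (log2 difference -0.70, limma adjusted p = 0.00698). Lgmn, an asparaginyl endopeptidase of the endosome, rose from 25.3, 21.96, 21.95 and 33.7 in HI to 68.4, 58.7, 63.5 and 39.0 in LO (log2 difference 1.12, SE 0.233, limma adjusted p = 0.016). It passed in 17 of 21 alternatives. Among the alternatives that lost the call, adjusted p was 0.051 with HI F2 left out, 0.0519 with LO F2 left out and 0.135 with both left out. Ifi30, a thiol reductase of antigen processing, was at 81.2 ± 17.6 and 92.1 ± 26.2 FPKM (SD, n = 4; limma adjusted p = 0.759). The B cell sum without Ighm and Igkc and the plasmacytoid dendritic cell sum, mostly Irf8 and Bst2, were lower in LO, as were H2-Ob, H2-DMb2 and Ctss. The full B cell sum was higher in LO. The part of these cells in those falls was not tested.

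**Figure D4:**
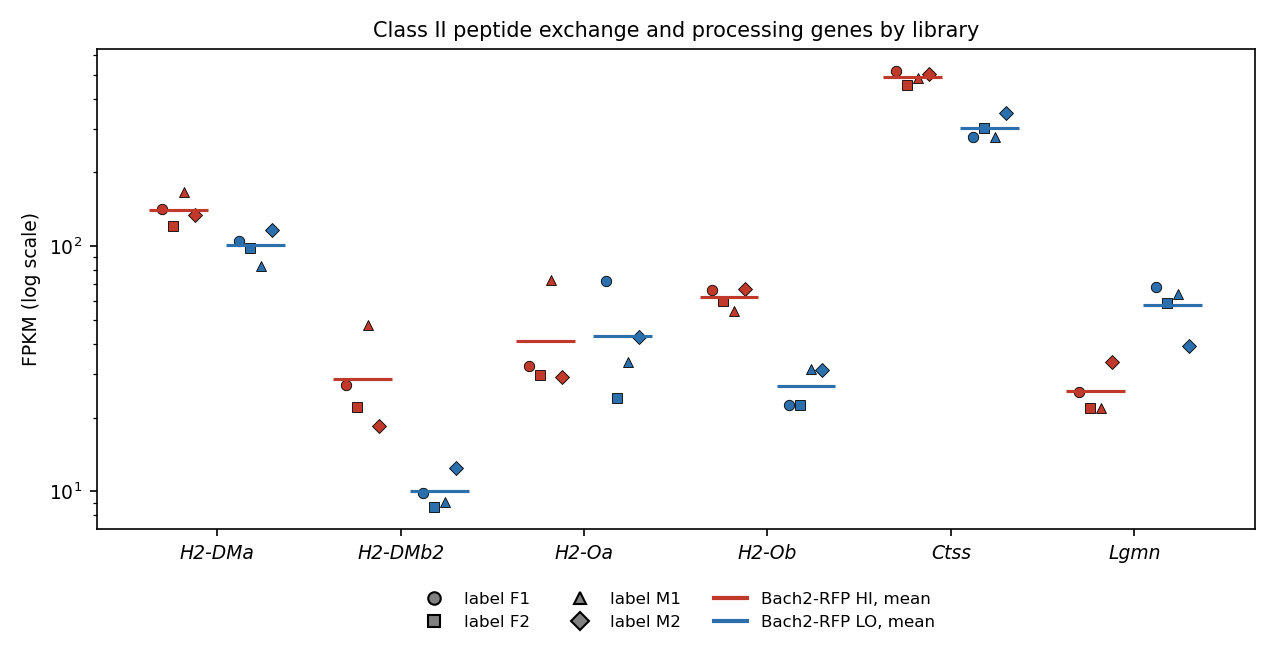
FPKM of 6 genes of class II peptide exchange and processing on a log axis, 1 point per library, with group means as bars. H2-Ob, H2-DMb2 and Ctss lie lower and Lgmn higher in LO without overlap, while H2-Oa overlaps. Of all tested genes, 7.18% lie lower and 7.9% higher in LO without overlap.

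Among 12 transcriptional regulators of MHC genes 0 passed with limma, 1 (Creb1) had an unadjusted p below 0.05, and the median was 0.08. Ciita, the class II coactivator, was low in both groups, at 4.94, 4.29, 3.03 and 5.01 FPKM in HI and at 8.34, 2.29, 2.73 and 3.11 in LO, with a log2 difference of -0.17 (limma adjusted p = 0.854). LO F1 was the highest and LO F2 the lowest library for Ciita, as for the class II chains. Ciita was named for its role, beyond the rule on which genes to name. Irf1, an interferon-induced activator of class I genes, was at 243 ± 47.2 FPKM in HI and 283 ± 69.5 in LO (SD, n = 4; limma adjusted p = 0.628). Nfyc, a subunit of the Y box factor NF-Y, was at 69.6 ± 30.0 and 56.9 ± 18.1 FPKM (limma adjusted p = 0.774).

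Over the 55 tested genes of all MHC lists, 2 were higher and 3 lower in LO, or 5 in all. That is 9.09%, near the 8.29% of all genes, with a median log2 difference of 0.01. H2-M2, among the higher ones, met the low-value filter through its LO values.

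**Figure D5:**
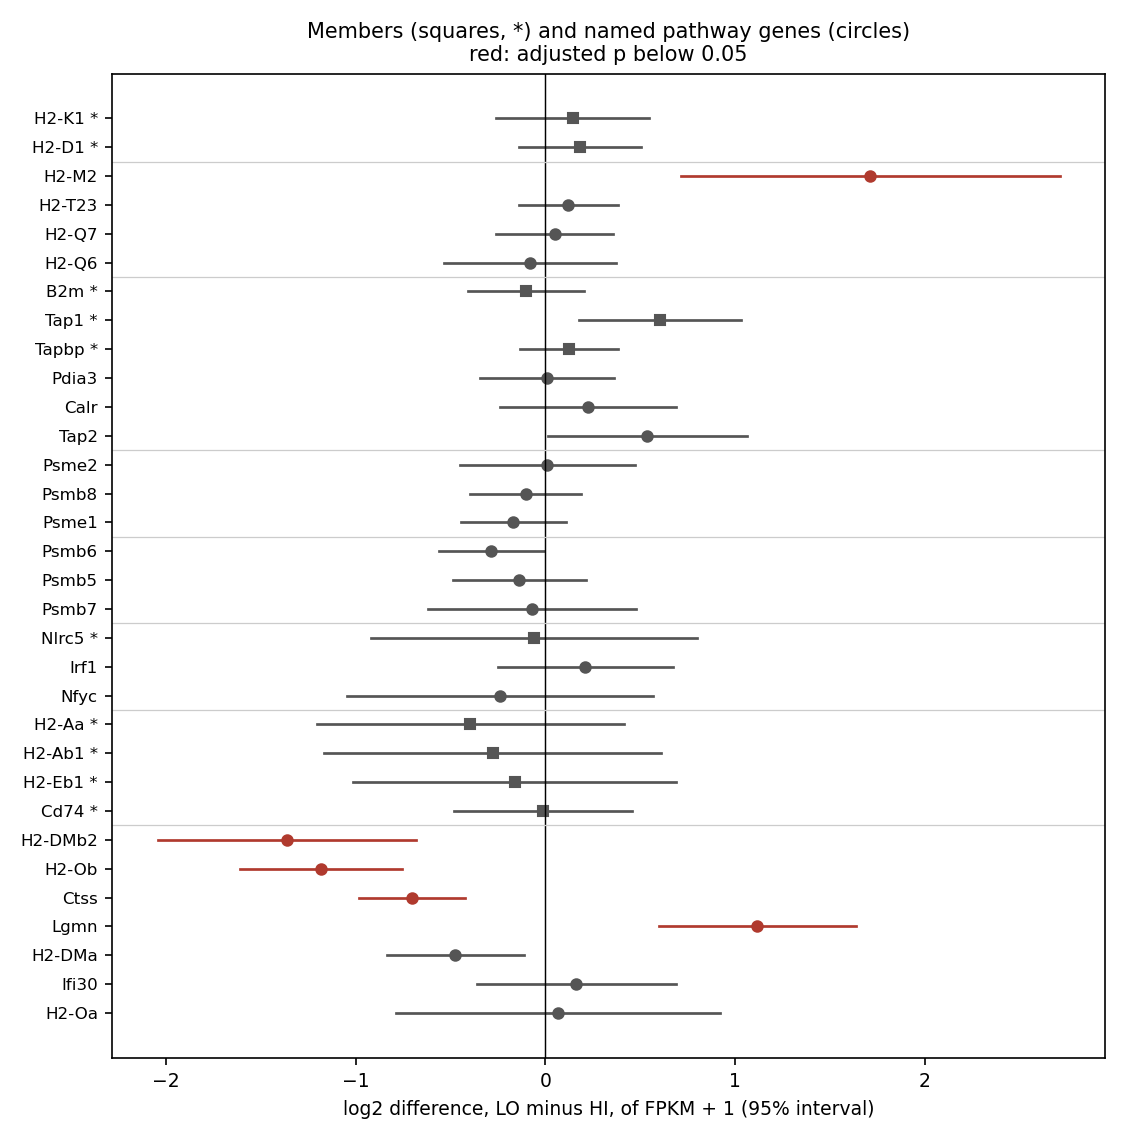
log2 difference, LO minus HI, of FPKM + 1 with limma's 95% interval for the 10 members (squares, starred) and 22 other genes of the MHC lists (circles), grouped by list; red marks adjusted p below 0.05. The intervals of all members but Tap1 span 0, and H2-M2, H2-DMb2, H2-Ob, Ctss and Lgmn are the genes that passed. H2-M2 met the low-value filter through its LO values.

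Genes outside the lists were ranked by Pearson's r over the 8 libraries with the mean log2 level of the class II members, among 7668 genes with a mean of at least 5 FPKM. The 5 most alike were Mrps10 (r = 0.94), Oser1 (0.927), Nipsnap3b (0.923), Mlf2 (0.921) and Mrps5 (0.91). Mrps10, a mitochondrial ribosomal protein, was at 32.7, 24.8, 34.7 and 36.0 FPKM in HI and 49.99, 12.9, 27.0 and 30.6 in LO. For the mean of H2-K1, H2-D1 and B2m the 5 were Tbc1d9b (r = 0.964), Rac2 (0.952), Copz1 (0.948), Dgkq (0.936) and Ambra1 (0.931). Rac2, a GTPase of blood cells, was at 1079, 1208, 1155 and 1401 FPKM in HI and 1136, 1327, 1119 and 1502 in LO, so in each group both libraries numbered 2 lay above those numbered 1. These values describe 8 libraries of unequal depth and were picked as the extremes of many genes.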

How the data were processed

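The deposited table holds FPKM, 1 column per library, which the authors made with Cuffnorm, per the name of the table. The submitters' processing notes name FastQC, cutadapt, HISAT2 and the builds NCBIM37 and mm9, without versions. Libraries were made with SmartSeq2, per the labels' protocols. Neither the scaling method nor the annotation nor the use of strand is given in those sources, so overlapping and antisense models cannot be told apart. Symbols came by Ensembl ID from GENCODE M21, and 31840 of 36811 IDs matched. Of the 66 genes of the MHC lists, 63 matched and 55 were tested; Psmb9 is among those not analysed here.

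The test took genes reaching 1 FPKM in 4 or more libraries as log2(FPKM + 1), LO against HI, with limma 3.58.1 in R 4.3.3 (eBayes with a variance trend, no covariate, Benjamini-Hochberg over 11260 genes, threshold 0.05). Changes of low genes come out too small on it. Folds are ratios of mean FPKM unless given as an interval. The fit was tested on simulated data. The members and lists were chosen with earlier results of these data known. Named genes were the members, list genes that passed, up to 3 others per list with the highest mean (1 is not reported here), and the 5 most alike genes per pattern. Alternatives were other pseudocounts, filters, scalings, eBayes settings, covariates, a block, and leaving out libraries. Promoter sequences are RefSeq's (GRCm38.p6), a build other than the authors'. Shared 50-base stretches came from GENCODE M21 transcripts.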

Additional observations from a re-analysis of the deposited data

Results flagged for a closer look

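Within groups of 4 libraries, 1 library stood far from the other 3 in 7 of 64 cases (32 genes, each in HI and LO) by Dixon's test at the 95% level, where chance gives about 1 in 20. All 7 were HI libraries. HI M2 stood apart for H2-K1 (7223 FPKM). HI F1 stood apart for Tap2 (405 FPKM), H2-Q6 (139.5, the lowest) and H2-M2 (1.42). For H2-M2 the other 3 values are 0, so that any value above 0 would have been set apart. HI M1, the shallowest library, stood apart for Psme1 (1139), Psmb7 (198) and H2-Oa (73.0).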

How the results depend on the processing

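Of 210 values of the 10 members under 21 alternatives, 207 stayed on the same side of the threshold. The others were B2m, which turned to 0.49, and H2-D1 under quantile normalization, and Tap1 with scaling on protein-coding genes. Class I members higher in LO thus numbered 2 and 1 under these scalings, and the cause was not tested. No class II member passed under any of the 21. Of 460 values of the named list genes 26 lost their call, all in H2-M2, H2-DMb2, Lgmn, H2-Ob and Ctss. H2-Ob and Ctss lost it only without both F2 libraries (adjusted p = 0.0524 and 0.0682).

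Of list genes, 2 were higher in LO. It was 1 with a pseudocount of 0.1, without a filter, with the filter of 5 FPKM and with sex as a covariate, and 0 to 2 when 1 library was left out, with 2 to 3 lower. Over all genes, scaling on protein-coding genes gave 830 higher. Leaving out 1 library gave 286 (without LO F2) to 453 higher, 329 without LO F1, and 285 to 382 lower. Without both F2 libraries, 175 genes were higher and 181 lower, and 0 list genes passed in either direction; without HI M1 and LO M2, 306 were higher and 239 lower, and 1 list gene was higher. These last alternatives and the library number as a covariate were chosen after seeing the data, and the smaller sets have fewer libraries.

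With the label as a replicate block, 412 genes were higher and 359 lower, and 1 list gene was higher. Same-labelled libraries deviated together by r = 0.015 to 0.113, and differently labelled ones by r = -0.1 to 0.058. Not every library correlated best with its own label. Values this small cannot decide whether the label is a pairing. Whether it marks a shared mouse is not known. Read totals are unknown, which limits what can be said of low genes such as H2-M2, Nlrc5 and Ciita.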
